A study of Mus musculus with 24 samples.

Results

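CpG methylation inside exons was examined in the dentate gyrus of the mouse hippocampus, the region in which granule neurons continue to be born in adult life. The exonic CpGs were all CpG cytosines of the deposited methylation table that lie in any exon of the GENCODE M21 annotation (mouse genome mm10) and more than 1000 bases from every annotated transcription start. They were 49865 of 762162 CpG cytosines (6.54%), counted separately on each DNA strand, and belonged to 8065 genes. Coding sequence held 33631 of them (67.4%), untranslated regions 9183 (18.4%) and exons of noncoding transcripts only 7051 (14.1%). The untranslated CpGs comprised 8431 in 3′ and 723 in 5′ untranslated regions, and 29 that were 5′ in one transcript and 3′ in another. At 1079 exonic CpGs (2.16%) exons of several genes overlapped, and each such gene was counted.

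Methylation was measured by reduced representation bisulfite sequencing (RRBS), which sequences bisulfite-converted genomic fragments cut at CCGG sites, in micro-dissected dentate gyrus of female C57BL/6JRj mice. The table held 5 mice of 1.5 months in standard cages (Young STD), 7 mice of 14 months in standard cages (Aged STD) and 7 mice of 14 months in an enriched environment (Aged ENR), a large enclosure with tunnels and toys in which mice lived in a group from 6 weeks of age. The labels describe 5 further Young ENR mice, which were not analysed here. The dissected tissue holds several cell types, so a level is an average over them, and a change within cells and a change in the cell mixture cannot be told apart. Each value is the percentage of reads that were methylated at a cytosine, called where a mouse had at least 10 reads. The table gives no read counts, so the depth behind a single value is unknown. Between 30269 and 47502 exonic CpGs (60.7% to 95.3%) were measured in a mouse, and 3348 in all 19 mice.

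DNA methylation in mammals is placed mostly on the cytosine of CpG dinucleotides. Bodies of active genes, exons included, are usually methylated, while CpG-dense islands, many of them at promoters and at genes of embryonic development, stay free of methylation. A CpG within coding sequence also serves the protein code, because CGN codons encode arginine.

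The sequences below show the kind of exonic DNA that was read, as windows of 30 bases on the plus strand of mm10. They come from blocks in which 2 groups of mice did not overlap, and they range from windows with few CpGs to the dense last exon of Sp8. Capitals mark the CpGs that were measured.
Atg16l1, coding and noncoding, chr1:87785956-87785985: cgacCGgaccctcaaactctgggatctcCG
Tmem201, coding, chr4:149727232-149727261: gggcCGgaacctcCGtgggcctgtcgattt
Tcf19, coding, chr17:35514500-35514529: caccCGgagcctcttcctgggctcCGtcag
Sp8, coding, chr12:118848998-118849027: ttggCGcCGCGgcCGaCGtgggctcCGCGg
Cilp2, 3′ untranslated, chr8:69880505-69880534: tccaCGggcccaacctgtaccCGgattcac
Of 11 such windows, 6 held a CCGG site, at which RRBS fragments begin.

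In young mice most exonic CpGs were either methylated or free of methylation. Of all exonic CpGs, 34.7% had a Young STD level of 80% or more, 40.1% were below 20% and 25.2% lay between. In introns 38.1% were at 80% or more and 29.0% below 20%, and around transcription starts 4.11% and 89.6%. The mean level of exonic CpGs in Young STD was 47.0% ± 1.39 (SD, n = 5 mice), where each mouse's value is the mean level of the set plus the mouse's mean deviation at the CpGs it measured. The same value was 48.4% ± 1.19 in coding sequence, 46.9% ± 2.17 in 3′ and 18.2% ± 1.03 in 5′ untranslated regions, 44.0% ± 1.51 in noncoding exons and 54.0% ± 1.81 in introns.

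The level of an exonic CpG fell with the number of CpGs around it. Where the 201-base window around a CpG held 1 to 5 CpGs the Young STD level was 66.1% ± 1.69 over 13738 exonic CpGs, and with 17 to 60 CpGs it was 7.87% ± 0.623 over 8824. In between, it was 61.5% ± 1.74 with 6 to 8 CpGs, 49.8% ± 1.38 with 9 to 12 and 24.4% ± 1.13 with 13 to 16 CpGs. Exons differ from introns in this density, with a median of 8 CpGs in the window against 5 for introns.

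At matched density, coding sequence was more methylated than 3′ untranslated regions, noncoding exons and introns, while 5′ untranslated regions were not split by density. With 6 to 8 CpGs in the window, coding CpGs were at 68.2% ± 1.61, against 49.9% ± 2.06 in 3′ untranslated regions, 45.1% ± 2.05 in noncoding exons and 50.7% ± 2.03 in introns (SD over the 5 Young STD mice). With 9 to 12 CpGs the coding level was 56.3% ± 1.22 and the 3′ untranslated level 34.1% ± 2.54. In the densest windows all of these classes were under 10%, with 8.46% ± 0.629 in coding sequence and 5.53% ± 0.295 in introns. The CpGs of the classes lie in different genes, and no test of class against class was made on these levels.

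Levels also followed the place of the exon in the transcript. Internal coding exons were at 59.3% ± 1.40 in Young STD, coding parts of last exons at 38.7% ± 1.05, coding sequence of single-exon transcripts at 15.7% ± 0.405 and coding parts of first exons, all of them over 1000 bases from a start, at 13.4% ± 0.626. The mean number of CpGs in the window was 9.45, 14.1, 15.9 and 15.4 in these 4 classes. With distance from the nearest transcription start, exonic levels were 29.9% ± 1.08 within 2000 bases, 44.1% ± 1.39 from there to 5000 bases, 59.0% ± 1.51 to 20000 bases and 67.2% ± 1.90 beyond.

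**Figure D1:**
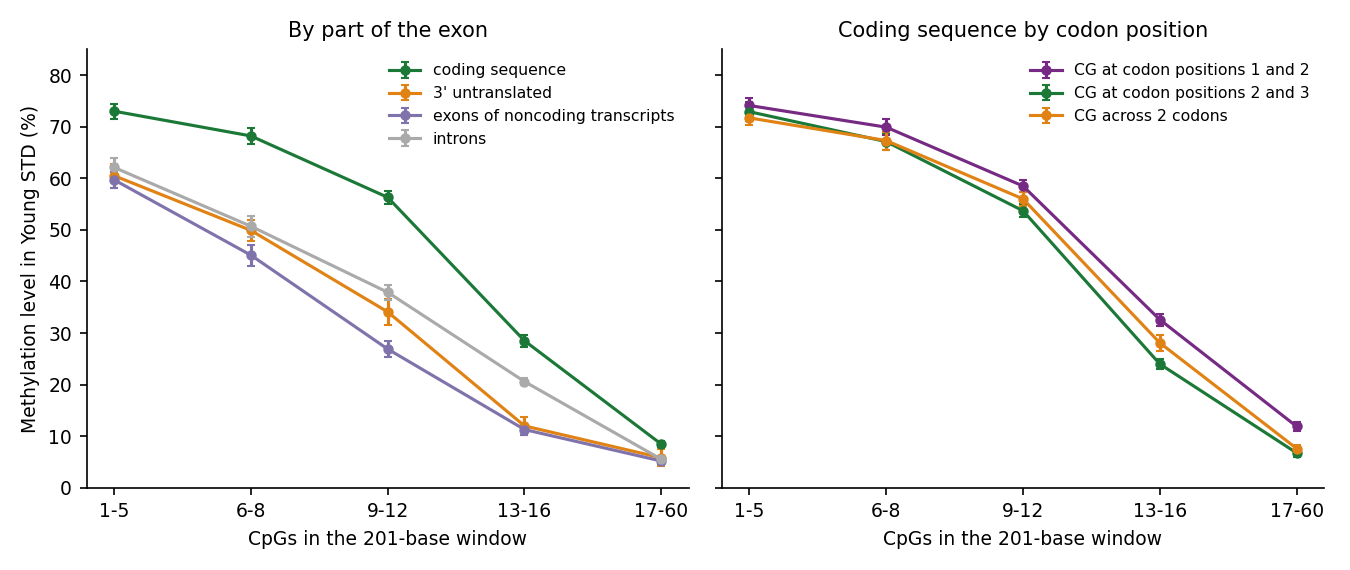
Young STD methylation level (percent, mean ± SD over 5 mice) against the number of CpGs in the 201-base window, for coding sequence, 3′ untranslated regions, exons of noncoding transcripts and introns (left) and for coding CpGs by codon position (right). Coding sequence lies above the other classes in every density class, and CpGs at codon positions 1 and 2 lie highest in each.

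Within coding sequence the level depended on the codon position of the CpG. CpGs at codon positions 1 and 2, the arginine codons CGN, were at 55.0% ± 1.15 in Young STD over 11780 CpGs. CpGs at positions 2 and 3 were at 43.9% ± 1.29 over 9151, and CpGs that span 2 codons at 45.2% ± 1.2 over 12339. Windows of the arginine-codon CpGs held fewer CpGs, 10.2 on average against 12.4 and 12.3, and density classes were therefore compared one by one. Within density classes the gap to positions 2 and 3 was smaller at low density, 1.33 points ± 0.947 (SD over 19 mice) with 1 to 5 CpGs, and 8.88 points ± 0.859 with 13 to 16 CpGs. It had the same sign in 17 of 19 mice in the sparsest windows and in 19 of 19 in each denser class. The gap to CpGs across codons was 1.81, 1.45 and 1.43 points in the 3 sparser classes (higher in 18, 16 and 17 of 19 mice) and 4.55 and 4.34 points in the 2 denser ones (19 of 19). The mice share the same CpGs, so these counts describe the mice and not a sample of codons.

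Gene groups differed widely in exonic methylation, from Hox genes at the bottom to numbered zinc finger genes at the top. The lists also differed in CpG density, from a mean of 5.95 CpGs in the window in ribosomal protein genes to 17.6 in granule neuron markers. Collagens had 6.14 and glutamate receptors 15.1. The list medians are not adjusted for density. Levels of single genes with an SD, other than Tiam1, Cux2 and Npas4, are means over the CpGs measured in all 19 mice, often a small part of a gene's exonic CpGs. Over the 5076 genes with at least 3 exonic CpGs the median Young STD gene level was 69.6%, with 1059 genes below 20% and 2052 at 80% or more. Hox genes, the homeodomain regulators of body axis patterning, had a median of 2.79% and a range of 0.120% to 12.5%, so all 21 measured members were below 20%. Hox CpGs with only 1 to 5 CpGs in the window were also low, at 10.3% (43 CpGs) against 66.0% for all exonic CpGs of that density. Hoxa4 and Hoxc11 were at 1.97% ± 1.53 and 3.51% ± 1.83 in Young STD over the CpGs with a value in every mouse, and Hoxa3 was at 28.8% ± 13.1 over 5 CpGs, against 12.5% over all its 20 exonic CpGs.

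Developmental transcription factors such as Lhx5, Dlx2 and Gata4 were likewise low, with a median of 5.82% and 40 of 48 genes below 20%. In Young STD, Lhx5 was at 1.31% ± 0.812 over 14 CpGs, Dlx2 at 8.78% ± 3.39 over 10 and Gata4 at 4.88% ± 6.56 over 7. The genes with the most exonic CpGs measured in all mice belonged to the same unmethylated set. Tchh, which encodes the hair follicle protein trichohyalin, was at 1.33% ± 0.687 over 25 CpGs, and Nxph1, a ligand of neurexins, at 3.31% ± 2.40 over 23. The forkhead gene Foxc1 was at 3.99% ± 1.00 over 21 CpGs, the noncoding Gm13425 at 3.30% ± 2.37 over 21, and Nhlh2, a neuronal helix-loop-helix factor, at 1.85% ± 1.32 over 18.

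Numbered zinc finger genes (Zfp), whose proteins mostly bind DNA through arrays of zinc fingers, had a median of 89.9%, with 57 of 92 genes at 80% or more and 11 below 20%. Their CpGs were more methylated than exonic CpGs of the same density, at 73.2% against 49.8% with 9 to 12 CpGs in the window and 54.7% against 24.4% with 13 to 16. The members most covered in all mice were Zfp316 at 18.1% ± 6.38, Zfp710 at 64.4% ± 9.83 and Zfp697 at 10.3% ± 4.02, all below the median of the list, as were their levels of 25.1%, 51.3% and 4.86% over all exonic CpGs. Collagen genes, which encode the fibres of the extracellular matrix, had a median of 76.8%, with 16 of 35 genes at 80% or more against 2052 of 5076 among all genes. Col4a1 was at 50.8% ± 10.2 and Col7a1 at 61.0% ± 32.3 over 6 and 4 CpGs, against 62.3% and 70.9% over all their exonic CpGs.

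Genes of neuronal signalling spanned the whole range. Glutamate receptor genes had a median of 11.9% (11 genes), synaptic scaffold and adhesion genes 44.4% (20), axon guidance genes 48.3% (33), potassium channels 58.9% (39) and calcium, sodium and HCN channels 64.9% (17). Grin2c, an NMDA receptor subunit, was at 0.57% ± 1.09, while the potassium channels Kcna1, Kcnh5 and Kcna5 stood at 3.58% ± 4.73, 36.6% ± 17.6 and 81.0% ± 6.33. The presynaptic genes Rims1 and Nrxn2 were at 5.58% ± 3.05 and 27.6% ± 23.2, against 9.65% and 35.7% over all their exonic CpGs. Among guidance receptors, Epha7 and Epha10 were at 5.2% ± 6.04 and 1.48% ± 2.46 and Ephb4 at 82.9% ± 10, where Epha10 and Ephb4 had 8.92% and 68.4% over all their exonic CpGs. The clustered protocadherins, cell surface adhesion proteins, had a median of 66.0% over 22 genes, and Pcdhac2, Pcdhb2 and Pcdhgb7 were at 1.36% ± 3.04, 82.0% ± 11.8 and 70.9% ± 17.2 over 4 CpGs each. Over all exonic CpGs of these genes, 13, 19 and 18 in number, the levels were 18.5%, 73.5% and 55.9%.

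Lists of cell type markers had from 16 (endothelium) to 132 (other hippocampal neurons) exonic CpGs. Granule neuron markers had a median of 5.95% (6 genes), other hippocampal neuron markers 4.64% (7), astrocyte markers 18.8% (3), oligodendrocyte lineage markers 55.4% (7), endothelium markers 52.4% (2) and microglia markers 82.6% (3). The mean number of CpGs in the window was 17.6, 14.4, 11.9, 12, 8.56 and 8.68 in these lists, in this order. Neurod2, a transcription factor of granule neurons, was at 1.72% ± 2.41 and Dsp, a desmosomal protein used as a granule neuron marker, at 95.5% ± 5.65 over 3 CpGs (79.4% over all 33), and Pou3f1, Dlx2 and Dlx1 of the other neurons were at 6.81% ± 0.697, 8.78% ± 3.39 and 3.19% ± 4.38. Of the same list as these last genes, Pvalb was at 81.8%, Lhx6 at 34.5%, Gad1 at 31% and Slc32a1 at 1.6% over all their exonic CpGs. These levels do not give the shares of cell types in the tissue.

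Genes of the DNA methylation machinery had a median of 75.7% (9 genes). In Mbd2, which encodes a methyl-CpG binding protein, the 8 CpGs measured in all mice were at 45% ± 11.7 in Young STD, 29.7% ± 18.6 in Aged STD and 27.3% ± 13.3 in Aged ENR. In the DNA methyltransferase gene Dnmt3a the values were 74.5% ± 7.58, 61.8% ± 21.5 and 68.9% ± 8.71. In both genes the mice of the 3 groups overlapped. Genes of adult neurogenesis had a median of 43.2% (15 genes), with the neurotrophin receptor gene Ntrk2 at 91.8% ± 6.08 and the growth factor gene Vegfa at 6.33% ± 4.83 in Young STD over 3 CpGs each. Over all their exonic CpGs, 13 and 21, the levels were 60.1% and 48.7%. Ribosomal protein genes had exonic CpGs in 4 of 83 genes, and 3 with at least 3 CpGs had a median of 24.6%.

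Imprinted genes, which are expressed from one parental copy and carry methylation on one allele at control regions, had a median of 68.4% over 9 genes. Gnas, the one member with at least 3 CpGs measured in all mice, was at 62.7% ± 7.93 in Young STD, 40.5% ± 32.0 in Aged STD and 69.5% ± 21.7 in Aged ENR. These values rest on 3 of its 33 exonic CpGs, which together had a Young STD level of 35.4%. The Aged STD mice ranged from 0% to 81.4% at the 3 CpGs, so the groups overlapped. X-linked genes, of which one copy is inactive in each female cell, were at 66.8% ± 2.03 over 951 exonic CpGs in Young STD, against 46.7% ± 1.38 on autosomes. The mean number of CpGs in the window was 8.18 on X and 10.3 on autosomes, and a part of the inactive copy was not tested. Among covered X-linked genes were Bcor at 6.52% ± 7.83, Tsc22d3 at 30% ± 9.61 (45% over all its exonic CpGs), Atp1b4 at 80.1% ± 9.89 and Tenm1 at 82.8% ± 6.23. Among 4 genes that the study had examined at chosen loci, Tiam1 held 19 exonic CpGs, Cux2 10, Npas4 a single one and Tshz2 none. None of the exonic CpGs of Tiam1 and Cux2 was measured in all mice, so each mouse's value is the gene's mean level plus the mouse's mean deviation at the CpGs it measured, and these sets of CpGs differ between mice. Tiam1, which encodes an activator of Rac1, was at 60.4% ± 1.96 in Young STD, 59.3% ± 3.87 in Aged STD and 58.8% ± 7.03 in Aged ENR. The homeobox gene Cux2 was at 92.1% ± 3.76, 86.9% ± 14.6 and 90.9% ± 5.46. The single CpG of the activity-regulated gene Npas4 was at 8.76% ± 12.9 in Young STD (5 mice), 27.1% ± 23.6 in Aged STD (5) and 3.35% ± 4.11 in Aged ENR (6).

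**Figure D2:**
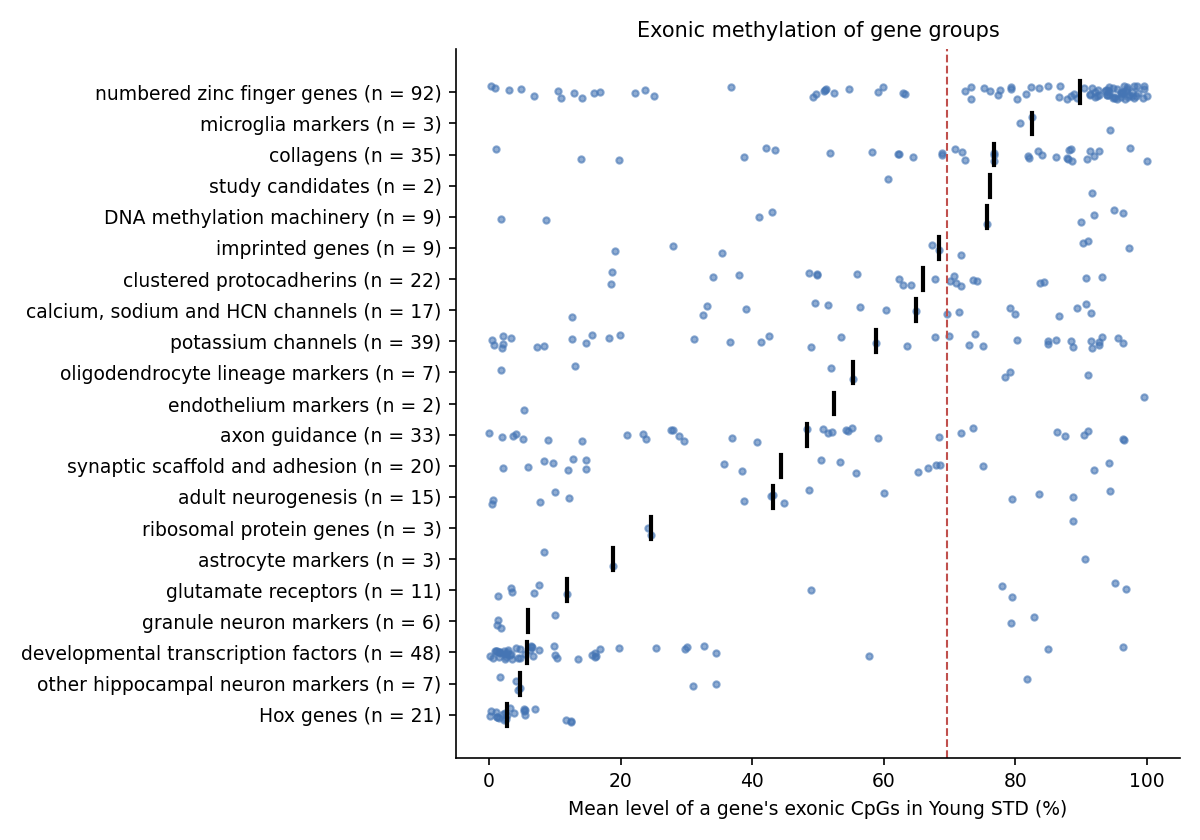
Mean Young STD level of the exonic CpGs of each gene (blue points, percent, genes with at least 3 exonic CpGs) for each gene list, with the list median as a black bar and the median of 5076 genes (69.6%) as a dashed line. All 21 Hox genes and 40 of 48 developmental transcription factors lie below 20, and 57 of 92 numbered zinc finger genes at 80 or more.

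The first comparison asked how exonic methylation differed between young and aged mice in standard cages. Over the 3348 exonic CpGs measured in all 19 mice, the Young STD means were 31.4%, 31.9%, 31.2%, 33.8% and 34.4%. The Aged STD mice had a lowest value of 26.6%, a median of 30.7% and a highest of 34.0%. The means ± SD were 32.6% ± 1.44 (n = 5) and 29.9% ± 2.57 (n = 7), a difference of -2.71 points in an exact two-sided permutation test (p = 0.0480 over 792 labellings, adjusted p = 0.144 over the 3 group comparisons). The groups overlapped and the difference did not pass after adjustment. Without Aged STD mouse 5, the highest of its group, the difference was -3.40 points (adjusted p = 0.0260 by exact permutation). No other run leaving out 1 mouse passed, with adjusted p from 0.145 to 0.191 by exact permutation.

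Both coding and untranslated CpGs had lower means in aged mice, without passing the test. Coding CpGs were at 38.3% ± 1.44 in Young STD and 36.0% ± 2.43 in Aged STD, a difference of -2.36 points (exact permutation p = 0.0745, adjusted p = 0.214). Untranslated CpGs were at 27.1% ± 1.53 and 24.0% ± 3.24, a difference of -3.12 points (p = 0.0732 by the exact permutation test, adjusted p = 0.129). The gap between coding and untranslated CpGs in a mouse was 11.3 points ± 0.262 in Young STD and 12.0 points ± 0.940 in Aged STD, and its difference of 0.767 points did not pass (exact permutation p = 0.115, adjusted p = 0.345). Without Aged STD mouse 5 the coding difference was -3.04 points (exact permutation, adjusted p = 0.0455), and no other run leaving out 1 mouse passed. With CpG-centred values over all members, the coding minus untranslated gap differed by 1.69 points (exact permutation p = 0.0114, adjusted p = 0.0322). Coding windows held 11.6 CpGs on average and 3′ untranslated windows 7.23. By number of CpGs in the window, Aged STD minus Young STD was -5.39 points in coding and -6.71 in 3′ untranslated CpGs (1 to 5). It was -3.65 and -3.25 (6 to 8), -1.53 and -2.03 (9 to 12), -0.75 and -0.529 (13 to 16) and 0.136 and 0.412 (17 to 60).

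Mice in enriched cages lay between the other groups on average. The Aged ENR exonic means had a lowest value of 28.6%, a median of 31.0% and a highest of 34.3%, with a mean of 31.0% ± 1.73 (n = 7). The difference from Aged STD was 1.14 points (exact permutation p = 0.336 over 3432 labellings, adjusted p = 0.336) and from Young STD -1.56 points (p = 0.119 by exact permutation, adjusted p = 0.178). Coding CpGs differed by 0.899 points from Aged STD (exact permutation p = 0.427) and untranslated CpGs by 1.25 points (exact permutation p = 0.389), and the corresponding differences from Young STD were -1.46 and -1.88 points (exact permutation p = 0.143 and 0.0859). The coding difference from Young STD was -0.964 points without Young STD mouse 5. No housing difference passed the test, and its size depended on single mice. The exonic difference from Aged STD was 0.595 points without Aged STD mouse 3, 0.596 without Aged ENR mouse 6, 0.729 without Aged STD mouse 6 and 1.84 without Aged STD mouse 5. Leaving out each mouse gave 0.357 to 1.59 points for coding and 0.492 to 2.07 for untranslated CpGs, the lowest without Aged STD mouse 3 and the highest without Aged STD mouse 5. Over all CpGs measured in each mouse, where the mice differ in their CpGs, the differences from Aged STD were 4.92 points in exonic, 5.08 in coding and 4.58 in untranslated CpGs (exact permutation, adjusted p = 0.302, 0.305 and 0.298). Without Aged ENR mouse 6 the differences from Young STD were -2.11 points in all exonic and -2.52 points in untranslated CpGs (exact permutation, adjusted p = 0.0130 and 0.00649). That mouse was the highest of its group in both, and no other run leaving out 1 mouse passed for them.

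Which CpGs a mouse covered moved with these means. A composition index, the mean Young STD level of all CpGs of the whole table that a mouse measured, was 30.6 to 32.3 in Young STD, 19.5 to 38.0 in Aged STD and 23.4 to 36.2 in Aged ENR. Without the 3 Aged STD mice of lowest index, an alternative chosen after seeing the data, the exonic difference from Young STD was -0.898 points (exact permutation p = 0.333) and that between Aged ENR and Aged STD was -0.663 points (exact permutation p = 0.585). Libraries came in 2 numbered series. In the series numbered 27 the exonic difference between Aged STD and Young STD was -2.39 points (exact permutation p = 0.143, smallest possible 0.0286) and in the series numbered 37 it was -3.30 points (exact permutation p = 0.3, smallest possible 0.100). With the index as a covariate, the exonic difference between Aged STD and Young STD was -0.884 points (exact permutation p = 0.199) and that between Aged ENR and Aged STD 0.0199 points (exact permutation p = 0.945).

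**Figure D3:**
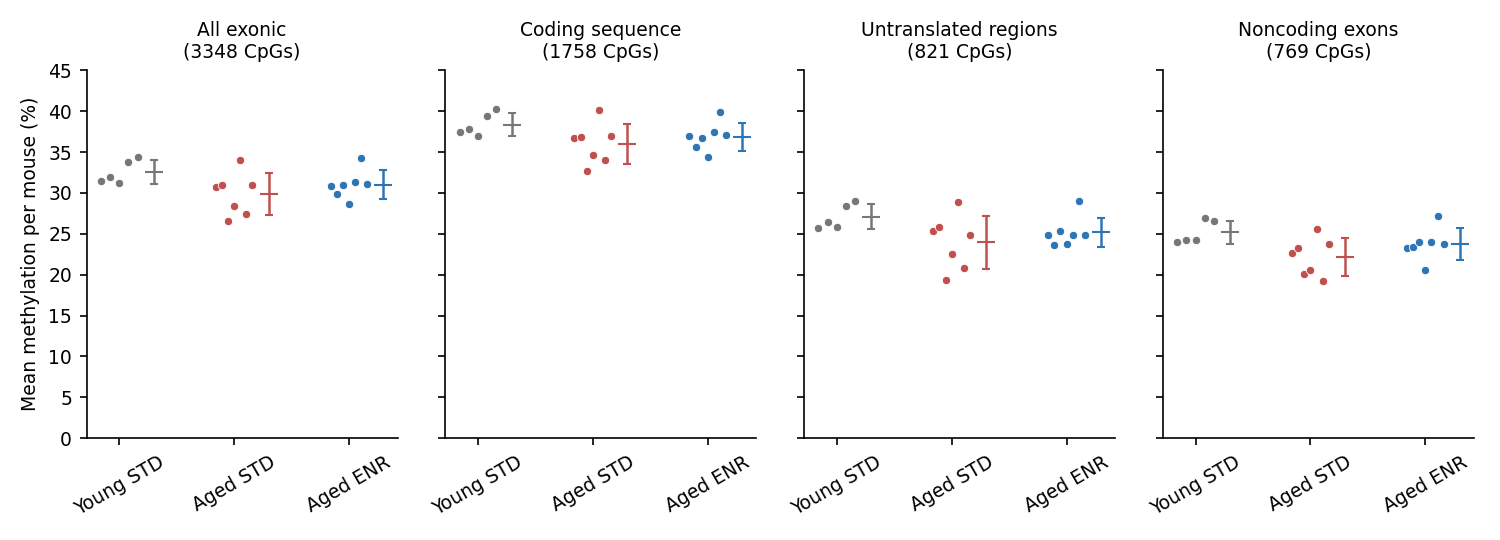
Mean methylation (percent) of each mouse over the CpGs measured in all 19 mice, for all exonic CpGs, coding sequence, untranslated regions and noncoding exons. Points are mice and the bars beside them give mean ± SD. The groups overlap in every panel, and Aged STD mice spread most.

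Exons differed less between young and aged mice than introns did. In absolute terms the intronic mean was 34.9% ± 2.00 in Young STD and 30.1% ± 3.64 in Aged STD, a difference of -4.77 points against -2.71 points in exons, or -13.7% against -8.31% of the young level. Intergenic CpGs differed by -3.11 points, or -7.3% of the young level, and all CpGs of the table by -2.03 points, or -9.88%. The smaller difference was thus not particular to exons. The exonic minus intronic mean of each Young STD mouse was -2.04, -1.67, -2.0, -3.01 and -2.96 points. In Aged STD the lowest value was -2.27 points, the median -0.251 and the highest 0.975, and in Aged ENR -1.47, -1.03 and 0.0978. All Aged ENR mice lay above all Young STD mice, and 6 of 7 Aged STD mice did.

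This gap passed the test in both comparisons with young mice. It rose by 2.06 points from Young STD to Aged STD (exact two-sided permutation p = 0.00884, adjusted p = 0.0133) and was 1.53 points higher in Aged ENR than in Young STD (exact permutation p = 0.00126, adjusted p = 0.00379). Between Aged ENR and Aged STD it differed by -0.539 points (exact permutation p = 0.274), and without Aged STD mouse 5 by -0.872 points (exact permutation, adjusted p = 0.0379). Within the library series numbered 27 and 37 the differences between Aged STD and Young STD were 1.83 and 2.45 points (exact permutation p = 0.0571 and 0.200), and those between Aged ENR and Young STD were 1.15 and 2.10 points, each at the smallest p its series allows (exact permutation p = 0.0286 and 0.100). Both comparisons use the same Young STD mice. Without the 3 Aged STD mice of lowest composition index the first difference was 1.35 points (exact permutation p = 0.0556, adjusted p = 0.0833). With the index as a covariate, the differences from Young STD were 1.27 points for Aged STD and 1.31 for Aged ENR (exact permutation, adjusted p = 0.00568 for both).

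CpG density moved with most of this gap. Of the intronic CpGs measured in all mice 58.3% lay in windows of 1 to 5 CpGs, against 29.3% of the exonic CpGs, and the differences with age were largest there. In those windows the difference of Aged STD from Young STD was -5.46 points in exons and -6.38 points in introns, and with 17 to 60 CpGs it was -0.222 and 0.101 points. With introns weighted to the density classes of exons, an alternative chosen after seeing the data, the gap fell to 0.526 points for Aged STD (exact permutation p = 0.0164, adjusted p = 0.0246) and to 0.533 points for Aged ENR (p = 0.0101 by exact permutation, adjusted p = 0.0246). In no single density class did the gap pass, with adjusted p from 0.246 upwards over 15 exact permutation tests.

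**Figure D4:**
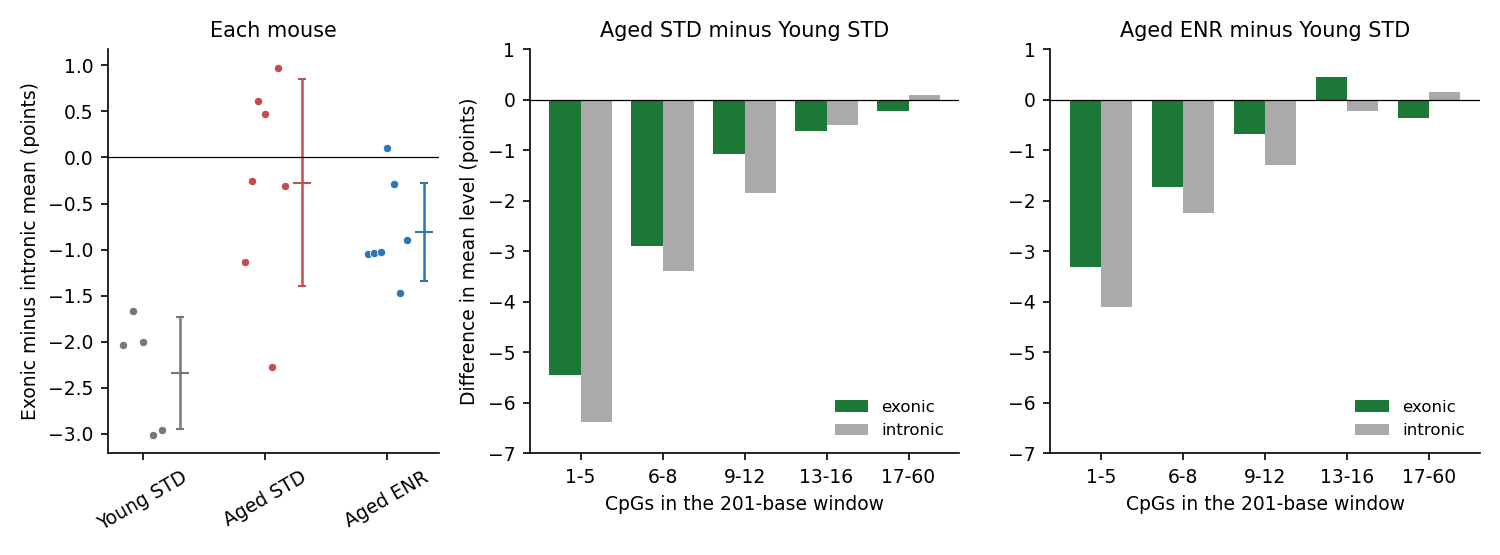
Left, exonic minus intronic mean of each mouse in points, with mean ± SD beside the points. Middle and right, difference in mean level (points) from Young STD for exonic and intronic CpGs by number of CpGs in the 201-base window, over CpGs measured in all 19 mice. The largest differences, -5.46 points in exons and -6.38 in introns, are in the sparsest windows of Aged STD.

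At single CpGs, no exonic cytosine passed between any 2 groups in the main fit. Fits with another variance model called a few, as given in the closing section. Limma, a linear model with moderated variances fitted to all CpGs of the table, called a CpG that passed an adjusted p of 0.05 and differed by over 25 points. It called 0 of 41172 exonic CpGs tested between Aged STD and Young STD, 0 of 40836 between Aged ENR and Aged STD and 0 of 41274 between Aged ENR and Young STD, against a background of 0% of 527597, 530258 and 522275 CpGs. At an unadjusted p under 0.05 there were 2067 exonic CpGs between Aged STD and Young STD (5.02%, background 4.42%), 1135 between Aged ENR and Aged STD (2.78%, background 2.25%) and 1884 between Aged ENR and Young STD (4.56%, background 3.95%). The smallest adjusted p of any CpG in the table was 0.450, 0.769 and 0.375 in the 3 comparisons.

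Large differences at single exonic CpGs were common, and their direction was uneven. Between Aged STD and Young STD 3634 exonic CpGs were over 25 points lower (8.83%, background 7.20%) and 1299 over 25 points higher (3.16%, background 2.17%). Between Aged ENR and Aged STD 1619 were lower (3.96%, background 2.63%) and 2541 higher (6.22%, background 4.55%), and between Aged ENR and Young STD 2769 were lower (6.71%, background 5.22%) and 1399 higher (3.39%, background 2.39%). These comparisons share groups and are given side by side. Values of single cytosines were imprecise. At 3824 exonic CpGs measured on both strands, the 2 strands of a CpG at 20% to 80% differed within a mouse with an SD of 39.1 points on average.

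Runs of neighbouring exonic CpGs gave no call either. A block was a run of at least 3 CpG cytosines of one feature class with gaps of at most 100 bases, and 6088 of 75921 blocks were exonic, with 39262 (78.7%) of the exonic CpGs. None of 5854, 5845 and 5875 exonic blocks tested was called by the same rule (background 0% of 72692, 72796 and 73092 blocks). At an unadjusted p under 0.05 there were 389 exonic blocks between Aged STD and Young STD (6.65%, background 6.11%), 232 between Aged ENR and Aged STD (3.97%, background 3.90%) and 352 between Aged ENR and Young STD (5.99%, background 5.51%). The median exonic block difference was -0.486 points for Aged STD against Young STD (all blocks -0.201), 0.336 points for Aged ENR against Aged STD (all blocks 0.166) and -0.132 points for Aged ENR against Young STD (all blocks -0.0495).

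One exonic block passed the adjusted p without the size limit, in coding sequence of Setd1b, which encodes a histone H3 lysine 4 methyltransferase. It was the one such block of all 72692 tested between Aged STD and Young STD (background 0.00138%) and was named after its values were seen. Its 3 cytosines at chr5:123148491-123148522, in an internal exon, had means of 26.5%, 22.1% and 23.3% in the 3 Young STD mice measured and 0% in each of 6 Aged STD mice. The 5 Aged ENR mice measured were at 0%, 0%, 2.56%, 4.76% and 49.3%. The fitted difference between Aged STD and Young STD was -24.0 points (SE 1.74, limma adjusted p = 0.00585), and with the composition index in the model it was -23.8 points (limma adjusted p = 0.161). Leaving out Aged STD mouse 1, 2, 3, 4, 6 or 7 moved the adjusted p to between 0.0799 and 0.144. Between Aged ENR and Young STD the difference was -12.6 points (SE 11.1, adjusted p = 0.883).

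Few exonic blocks separated the groups completely. Among blocks measured in every mouse compared, 11 of 1143 exonic blocks did not overlap between Aged STD and Young STD (0.962%, background 0.522%), 1 of 1034 between Aged ENR and Aged STD (0.0967%, background 0.0592%) and 4 of 1415 between Aged ENR and Young STD (0.283%, background 0.413%). The blocks with the largest differences are described as the mean over the cytosines measured in each mouse, and differences are fitted values that allow for which cytosines were measured. None of those described passed limma's adjusted p, which ranged from 0.492 to 0.883 in the comparisons in which the groups separated.

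Of the 11 blocks that separated Aged STD from Young STD, 8 were lower in Aged STD (72.7%, against 69% of the 113 such blocks of the whole table), and the 5 with the largest differences are described. In the 3′ untranslated region of Cilp2, which encodes a cartilage matrix protein, the Young STD values were 73.5%, 73.9%, 74.1%, 70% and 75%, and the Aged STD values had a lowest of 7.14%, a median of 38.7% and a highest of 67.5% (chr8:69880418-69880644, fitted difference -29.9 points, SE 9.40). The Aged ENR values had a median of 68.0% and ranged from 37.5% to 85.8%, across both other groups. In an internal exon of Atg16l1, an autophagy gene, with coding and noncoding CpGs, Young STD mice were at 55.3%, 46.2%, 57.5%, 70.1% and 58.6% and Aged STD mice at 15.0% to 43.2% with a median of 23.3% (chr1:87785960-87786094, -29.4 points, SE 8.76). The 6 Aged ENR mice measured were at 16.7% to 42.1% there, all below the Young STD mice. Drc3, a gene of motile cilia, was at 20.2%, 27.2%, 38.1%, 50.7% and 23.8% in Young STD and at 0% to 15.4% in Aged STD with a median of 9.54% (chr11:60370484-60370596, -24.5 points, SE 5.89).

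In Msi2 and Ddx25 most young levels were lower. Msi2, which encodes an RNA-binding protein of stem and progenitor cells, was at 26.0%, 23.8%, 21.1%, 19.9% and 20.5% in Young STD, and its Aged STD mice ranged from 0% to 19.5% with a median of 8.94% (chr11:88348943-88348967, coding, -13.5 points, SE 3.93). The highest Aged STD mouse thus lay just under the lowest young mouse. Ddx25, an RNA helicase gene of germ cells, was at 49.9%, 6.7%, 7.0%, 14% and 22.7% in Young STD and at 0% to 5.02% in Aged STD (chr9:35539328-35539432, 3′ untranslated, -17.6 points, SE 5.77).

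There were 3 exonic blocks that separated upwards with age, and all 3 were coding. Tcf19, a transcription factor gene linked to cell growth, was at 70.6%, 71.3%, 73.0%, 69.6% and 67.4% in Young STD and at 75.7% to 90.8% in Aged STD with a median of 82.1% (chr17:35514504-35514598, 11.3 points, SE 3.41). Rrm2, the small subunit of ribonucleotide reductase, was at 87.6%, 94.1%, 92.1%, 88.6% and 96.1% in Young STD and at 95.4% to 100% in Aged STD (chr12:24711674-24711799, 6.30 points, SE 1.92). Its plain means overlapped, and the groups separate only in the fitted values. Sp8, a zinc finger factor of forebrain development, had the longest exonic block with 85 cytosines, at 0.182% to 1.29% in Young STD and 1.89% to 3.71% in Aged STD (chr12:118848592-118849266, 1.76 points, SE 0.557). Aged ENR mice were at 0.552% to 2.21% in the Sp8 block, across both groups.

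Between Aged ENR and Young STD all 4 blocks that separated were lower in aged mice, as were 69.4% of the 98 such blocks of the whole table. Of these, 3 are described. Tmem201, an inner nuclear membrane gene, was at 51.0%, 80.8%, 63.4%, 100% and 62.0% in Young STD and at 20% to 48.2% in Aged ENR (chr4:149727236-149727340, coding, -36.8 points, SE 9.46). In Tpm1, which encodes the actin-binding tropomyosin, the 3′ untranslated block was at 88.5% to 92.6% in Young STD and 53.3% to 85.7% in Aged ENR (chr9:67023559-67023789, -13.9 points, SE 5.40). In the last coding exon of Chd9, a chromatin remodeller gene, the values were 25.7% to 39.0% and 16.7% to 25.7% (chr8:91051369-91051508, -8.96 points, SE 4.98). Its plain means met at 25.7%, and blocks were counted as separated on the fitted values.

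**Figure D5:**
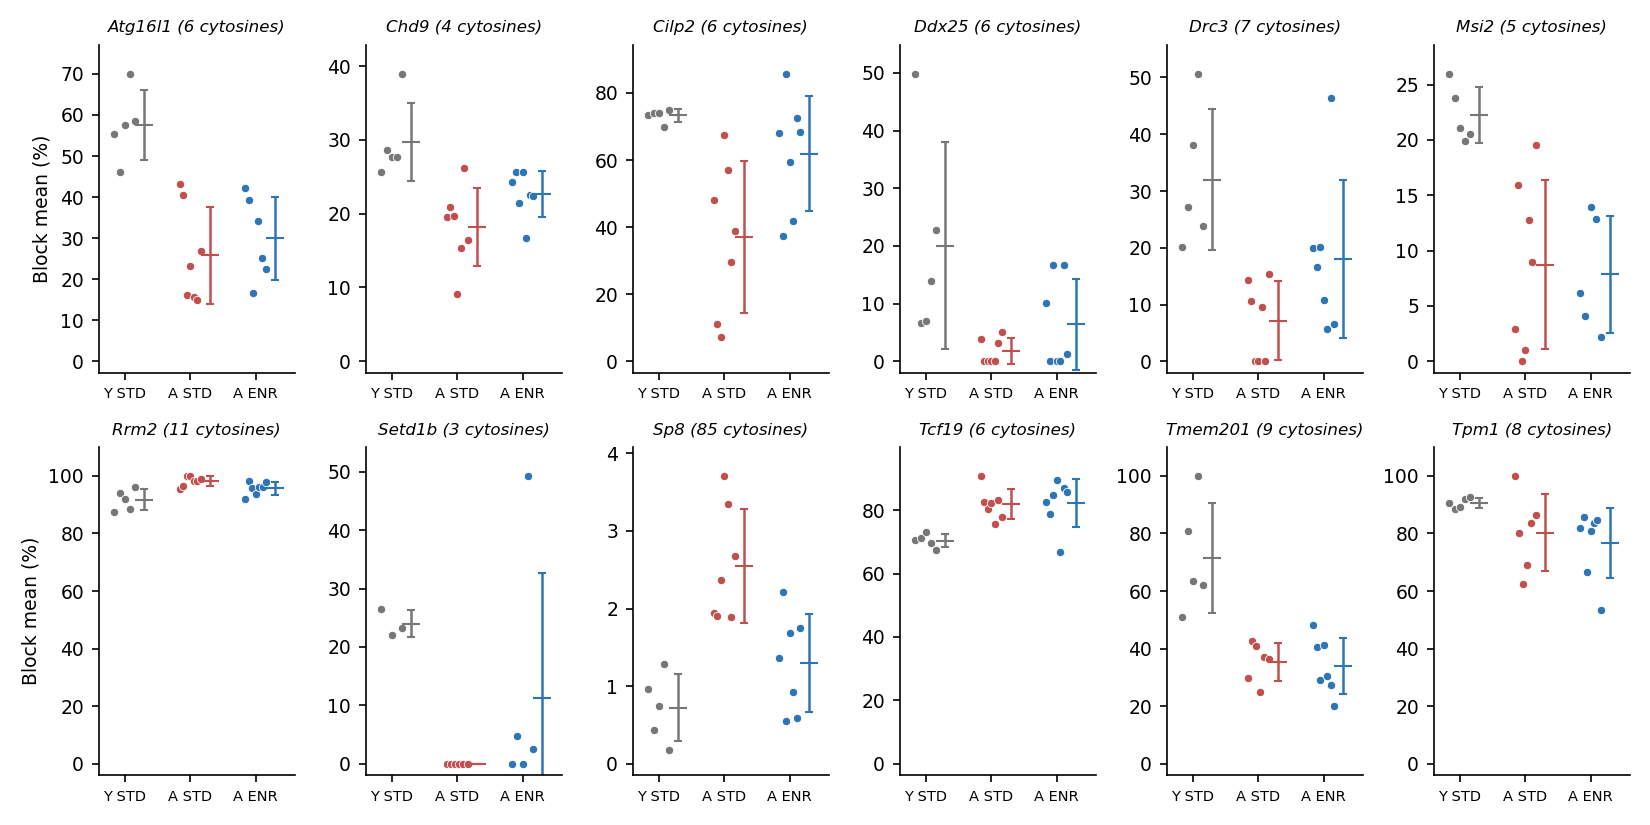
Mean methylation (percent) of 12 exonic blocks in each mouse, with mean ± SD beside the points, for young (Y) and aged (A) mice in standard (STD) or enriched (ENR) cages. The vertical axes differ between panels. Young STD mice lie above Aged STD mice in Cilp2, Atg16l1, Drc3, Msi2 and Ddx25 and below them in Tcf19 and Sp8. Of the blocks shown, Setd1b alone passed the adjusted p.

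Exonic blocks of the gene lists did not pass. None of the lists of marker, channel, receptor, developmental and other genes had a block at an adjusted p under 0.05 in any comparison. Calcium, sodium and HCN channels had a median block difference of -5.06 points between Aged STD and Young STD over 29 blocks, with 3 lower and 0 higher at an unadjusted p under 0.05, beside -0.486 for all exonic blocks. At that p, 260 of the 5854 exonic blocks tested were lower (4.44%, background 4.36% of all blocks) and 129 higher (2.2%, background 1.75%). Clustered protocadherins had -2.70 points over 33 blocks, axon guidance genes -1.73 over 40, imprinted genes -2.22 over 14 and DNA methylation machinery -4.30 over 10. Genes of adult neurogenesis had -4.49 points over 18 blocks, synaptic scaffold and adhesion genes -0.109 over 38 and potassium channels 0.135 over 44. Astrocyte markers had -8.82 over 4 blocks with 1 lower and 0 higher, and 5.75 between Aged ENR and Aged STD. Between Aged STD and Young STD, granule neuron markers had -0.264 over 13, other neuron markers 0.795 over 12 and oligodendrocyte lineage markers 0.731 over 16. Microglia markers had -0.583 over 3 and endothelium markers -0.8 over 2. Hox genes had 0.793 points over 28 blocks with 0 lower and 2 higher, and developmental transcription factors 0.240 over 86 with 3 lower and 1 higher. Numbered zinc finger genes had -0.696 points over 112 blocks with 5 lower and 3 higher, and collagens 0.805 over 39 with 1 lower and 0 higher. Between Aged ENR and Aged STD, the medians of lists with at least 25 blocks lay between -0.480 points (calcium, sodium and HCN channels) and 3.40 points (clustered protocadherins).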

How the data were processed

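The authors made RRBS libraries from single mice and, per the study's methods, trimmed the reads and aligned them to mm10 using Bismark, after which methylKit read out the methylation levels. The labels' processing notes name Trim Galore 0.4.0, cutadapt 1.8.1, Bismark 0.16.1 and methylKit 1.5.2, and the study's methods give other versions of Trim Galore and Bismark. The deposited values are percent methylation per cytosine, kept where a mouse had at least 10 reads and at most the 99.9th percentile of coverage, and where at least 3 mice of each group had a value. Read counts are not used here, so no counting interval could be given.

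The exonic CpGs and gene lists were chosen with earlier results of these data known. Classes came from the comprehensive GENCODE M21 annotation (141767 transcripts), in the order promoter (within 1000 bases of a start), exon, intron, intergenic. Within exons, coding sequence came before untranslated regions. Of the 762182 rows, 20 were outside the CpG context of mm10 (1 of them exonic) and were left out. Gene models and coordinates refer to mm10, and sequences were read from the RefSeq copy of that assembly (GRCm38).

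Means over CpGs measured in all 19 mice were compared by two-sided exact permutation of the mice, with Benjamini-Hochberg adjustment over the 3 comparisons of each measure. Single CpGs and blocks were fitted with limma 3.58.1 (R 4.3.3) on percent values over the whole table, with a prior variance trended on the mean and Benjamini-Hochberg adjustment over all features tested. Features without values in at least 3 mice of each group compared, or constant over these mice, were not tested. The procedure was tested on simulated data. A block value in the fit is the block's mean level plus the mean deviation of at least 3 measured cytosines. A gene level needs at least 3 exonic CpGs, and a gene level per mouse needs at least 3 CpGs measured in all mice.

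Genes and blocks were named by rule: per comparison, up to 5 exonic blocks in each direction with the largest difference among those measured in all mice compared and not overlapping between groups, per list the 3 genes with most CpGs measured in all mice, the 5 most covered genes, the most covered imprinted and X-linked genes, and 4 candidate genes of the study. Some genes and blocks that meet these rules are not reported here. Replicates are separate mice. Alternatives were library series, composition index, replicate block, other sets of CpGs, other variance models, other distances to a start, and leaving out each mouse.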

Additional observations from a re-analysis of the deposited data

Results flagged for a closer look

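Single mice stood far from the rest of their group in 22 of 184 group values examined. The nominal rate of about 1 in 20 holds for normally spread values, and the rate for groups close to 0% or 100%, as some here were, was not computed. In the untranslated CpGs measured in all mice, the highest Aged ENR mouse was at 29.0%, and in the 3′ untranslated CpGs at 30%. Among blocks, the highest Aged ENR mouse was at 46.4% in Drc3 and at 49.3% in Setd1b, and the highest Young STD mouse was at 39.0% in Chd9. Among genes, high single mice were seen in Young STD for Grin2c (2.50%), Epha10 (5.82%), Pcdhac2 (6.79%), Gata4 (16.4%), Zfp316 (29.1%) and Bcor (20.3%). High Aged STD mice were seen in Neurod2 (16.7%), Gata4 (14.2%) and Foxc1 (10.8%), and a low one in Nhlh2 (1.46%). High Aged ENR mice were seen in Neurod2 (10.1%), Kcna1 (14.2%), Pcdhac2 (27.1%), Pcdhgb7 (100%) and Hoxa3 (47.2%), and low ones in Dsp (66.7%) and Zfp316 (0%).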

How the results depend on the processing

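Of 457 alternative values of 22 results, 424 kept their direction and their side of the threshold. The lower exonic, coding and untranslated means of Aged STD kept their sign in every alternative run, with -0.884, -0.637 and -0.873 points under the composition index as a covariate and -8.54, -8.27 and -9.28 over all CpGs measured in each mouse. Differences between Aged ENR and Aged STD changed sign without the 3 Aged STD mice of lowest composition index, chosen after seeing the data, to -0.663 points for exonic, -0.757 for coding and -1.03 for untranslated CpGs, 0.179 for exonic minus intronic and 0.276 for coding minus untranslated. With the index as a covariate they were -0.176 for coding and -0.0528 for untranslated CpGs. The exonic minus intronic value was 0.00713 with introns weighted by density, and coding minus untranslated 0.502 over all CpGs measured in each mouse. The exonic minus intronic difference between Aged STD and Young STD was 1.35 points without the 3 mice (adjusted p = 0.0833 by exact permutation). The cause was not tested.

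Mice with the same replicate number did not deviate together (r -0.0497 to 0.0856 over 17 pairs, against -0.111 to 0.106 over 102 pairs with different numbers). With the number as a replicate block the exonic minus intronic differences from Young STD were 1.82 points for Aged STD and 1.67 for Aged ENR, both at the smallest p that an exact permutation of 5 pairs allows (p = 0.0625, adjusted p = 0.0938), and no other mean changed its call. No exonic block tested passed limma's adjusted p between Aged STD and Young STD under the replicate block (smallest 0.805), and the Setd1b block has no value there. Exonic differences were -2.44 points for Aged STD and -2.23 for Aged ENR against Young STD under the replicate block.

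Coding minus untranslated differences from Young STD passed over CpG-centred values, with 1.69 points for Aged STD and 1.15 for Aged ENR (exact permutation, adjusted p = 0.0322 for both), and over all measured CpGs with 1.51 points for Aged ENR (adjusted p = 0.0341). These gaps were not matched for CpG density. Leaving out each mouse gave -3.40 to -2.16 points for the exonic and -3.04 to -1.81 for the coding difference between Aged STD and Young STD. Between Aged ENR and Young STD it gave -2.11 to -1.10 for exonic and -2.52 to -1.40 for untranslated CpGs, and between Aged ENR and Aged STD -0.872 to -0.331 for exonic minus intronic. Limma called 9, 1 and 10 exonic CpGs with a prior variance without a trend, for Aged STD against Young STD, Aged ENR against Aged STD and Aged ENR against Young STD, and 3 and 4 for the first and last with all groups in one fit. The share called over all CpGs in these fits is not given here, so the counts are not compared with a background. Without the minimum size 1 exonic block was called, in Setd1b, whose difference was -23.8 points with the composition index (adjusted p = 0.161). None of its 3 measured Young STD mice was left out. Unknown read depth limits single values.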
